A study of Vitis amurensis with 6 samples.

Results

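Long coding genes were taken from the deposited table of cold-treated grapevine callus by their structure alone: a coding length of 3000 bases or more, at least 2 exons, no gap between exons over 10000 bases, and a place on chromosomes 1 to 19. Of 16645 genes in the table, 731 (4.39%) met these limits. Another 187 genes of this length had a longer gap, 5 had a single exon and 72 lay outside the numbered chromosomes. The RNA came from Vitis amurensis, the Amur grape, grown as callus, which is tissue of dividing cells without organs. There were 3 libraries of callus overexpressing VaWRKY12 and 3 of callus labelled EV, whose genotype label reads Envelope. Both groups were transgenic, were selected on B5 medium with kanamycin at 20 mg per L and kept in the dark at 25 °C, and were then cooled to 4 °C for 24 hours at 15 days after transfer. The comparison is therefore between genotypes in the cold, and the series asks which genes lie downstream of VaWRKY12. The labels do not state if replicates came from separate cultures or lines, or what promoter drove the transgene. P-values therefore reflect only how far these samples spread, and that spread may be technical.

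A coding sequence is the part of a transcript that is translated, and introns are the stretches between exons that the spliceosome removes. In plants, long coding sequences are known for large proteins with many domains, such as ABC transporters, callose synthases and chromatin remodelling enzymes. VaWRKY12 belongs to the WRKY family, plant transcription factors that bind W-box elements in promoters and are known for roles in stress responses. The table gives identifiers and exon positions but pairs them with no names, so no role is given to any gene here, and the overexpressed gene and callus markers were not looked up.

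Introns of these genes were short in the typical intron but not in their sum. The median of a gene's own median intron was 184 bases in long genes, against 257 bases in 5248 genes of 1000 to 2000 bases under the same limits, called mid-length genes below. The longest intron of a long gene had a median of 2797 bases, against 1428 bases in mid-length genes. Introns made up a median of 68.3% of the gene's span in long genes and 70.9% in mid-length genes, so long genes were not poor in intron sequence. Their coding length ran from 3000 to 31131 bases with a median of 3642, against a median of 1371 in mid-length genes. They had 2 to 103 exons with a median of 16, against a median of 7 in mid-length genes, and the typical exon was of similar size, at 160 and 149 bases. The largest single exon of a long gene was 29890 bases, in the longest model, which has 6 exons. Fractions of a read occurred in 369 of the 731 long genes (50.5%), against 37.7% of mid-length genes and 39.8% of all genes. Genes with fractions may share reads with other gene models.

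Libraries held 9139429 to 14966502 reads in VaWRKY12 and 8795632 to 10647037 reads in EV. Levels between genes are given as RPKM, reads per kb of coding length, scaled to the library's reads in the table. Per length, long genes were expressed at a lower level than mid-length genes in each of the 6 libraries. The median was 17.6, 16.9 and 14.4 RPKM in VaWRKY12 replicates 1, 2 and 3 and 15.2, 17.9 and 17.8 RPKM in EV replicates 1, 2 and 3. Mid-length genes had medians of 20.5 to 22.3 RPKM in VaWRKY12 and 20.6 to 21.5 RPKM in EV. The log2 difference between the medians, long minus mid-length, was -0.41 ± 0.09 in VaWRKY12 and -0.31 ± 0.11 in EV (SD, n = 3 each). The groups overlapped, and their difference of -0.09 was smaller than the pooled SD of 0.10. A lower level was not particular to long genes. Among genes with enough reads to test, under the same limits, the median fitted level was 46.6 RPKM under 500 bases and 31.4 from 500. It was 22.3 RPKM from 1000 bases, 18.3 from 2000 and 18.9 from 3000, each class ending where the next begins. From 4000 bases it was 16.7 RPKM, and at 5000 or more 12.5. In bulk RNA, fewer cells of a type and less RNA per cell cannot be told apart.

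Long genes were scarce at the top of the range of levels. Only 3.28% of long genes averaged 100 RPKM or more over the 6 libraries, against 11.6% of mid-length genes. The 95th percentile was 83.03 RPKM in long genes and 172 RPKM in mid-length genes, and the highest mean was 262 and 3152 RPKM. At the low end 8.89% of long genes averaged under 1 RPKM, against 3.56% of mid-length genes. All genes of the table have at least 1 CPM, a read count scaled to library size, in at least 2 libraries. That limit stands for a lower RPKM in a longer gene. It thus also bears on the median levels by length given above, by an amount that was not tested. Long genes had a median of 692 reads averaged over the libraries, against 313 in mid-length genes.

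**Figure D1:**
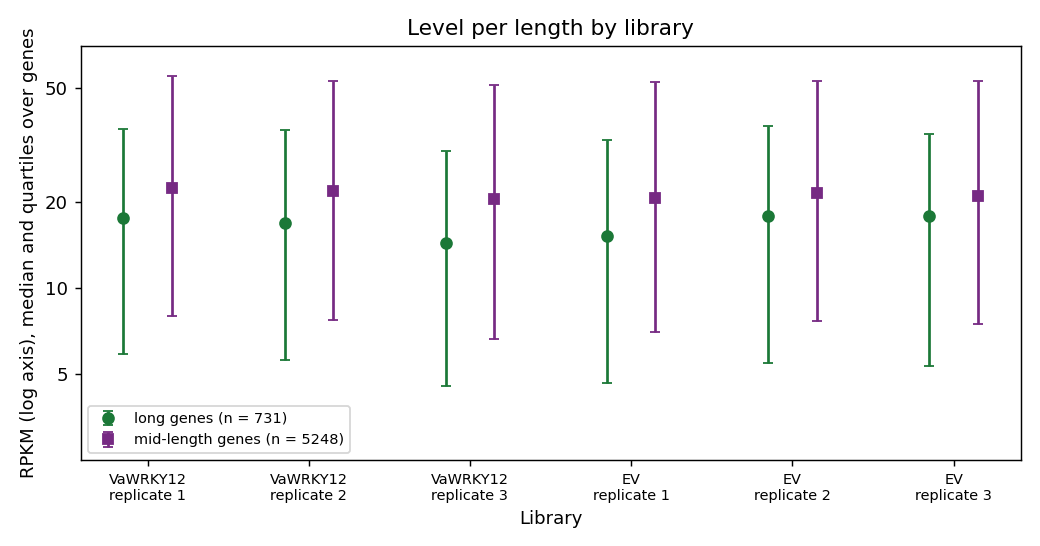
Median RPKM over genes in each library, with bars from the lower to the upper quartile, for 731 long and 5248 mid-length genes (log axis). Long genes lie below mid-length genes in each library, and lowest in VaWRKY12 replicate 3 (14.4) and EV replicate 1 (15.2).

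Long genes took 7.88%, 7.79% and 6.62% of the reads in VaWRKY12 replicates 1, 2 and 3, and 7.13%, 8.11% and 7.99% in EV replicates 1, 2 and 3. Exact binomial 95% intervals were within 0.0179 percentage points of each share and cover counting error only. VaWRKY12 replicate 3 and EV replicate 1 were the low libraries, so the groups overlapped. The mean share was 7.43 ± 0.71% in VaWRKY12 and 7.75 ± 0.53% in EV (SD, n = 3 each), a difference of -0.317 points. Without VaWRKY12 replicate 3 the difference was 0.0891 points, of the opposite sign. It was -0.623 points without EV replicate 1 and -0.217 points without both low libraries, an alternative added after seeing the data. Mid-length genes took 34.1% to 34.4% of the reads in VaWRKY12 and 34.1% to 34.3% in EV.

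The libraries that stood low for long genes did so gene by gene. Among 721 long genes that passed the filter on low counts, the lowest of the 6 libraries was VaWRKY12 replicate 3 for 350 genes (48.5%) and EV replicate 1 for 219 (30.4%). Together these libraries held the lowest value for 78.9% of long genes, against 48.8% of 5164 mid-length genes tested. On the log2 CPM scale, after TMM scaling of the libraries, the median long gene lay at 0.03, 0.04 and -0.16 from its mean over the 6 libraries in VaWRKY12 replicates 1, 2 and 3. In EV replicates 1, 2 and 3 it lay at -0.09, 0.09 and 0.08. The median mid-length gene stayed within 0.02 of 0 in all 6 libraries.

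The deviation followed coding length across the table, over classes chosen after the values were seen. In VaWRKY12 replicate 3 the median deviation was 0.12 for genes under 500 bases, 0.07 from 500 bases, -0.02 from 1000, -0.10 from 2000 and -0.13 from 3000, each class ending where the next begins. It was -0.21 from 4000 bases and -0.20 at 5000 or more. In EV replicate 1 it was 0.04 under 500 bases and -0.09 at 5000 or more, and in EV replicate 2 it ran the other way, with -0.05 and 0.14 in these classes. The slope of the deviation was 0.0261, 0.0241 and -0.0524 per doubling of length in VaWRKY12 replicates 1, 2 and 3, and -0.0368, 0.0217 and 0.0174 in EV replicates 1, 2 and 3. Each group thus had 1 library with a falling slope and 2 with a rising slope, and the group means were -0.0007 ± 0.0448 in VaWRKY12 and 0.0007 ± 0.0326 in EV (SD, n = 3 each).

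**Figure D2:**
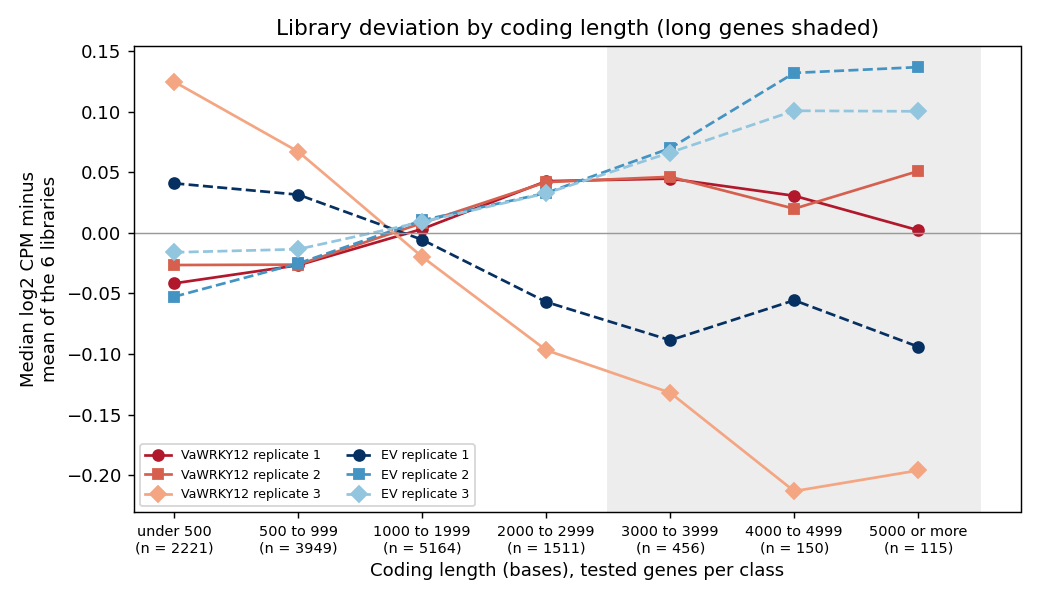
Median over tested genes of log2 CPM minus the gene's mean over the 6 libraries, by class of coding length (numbered chromosomes, at least 2 exons, no gap over 10000 bases). Lines fall with length in VaWRKY12 replicate 3 and EV replicate 1 and lie above 0 for long genes (shaded) in the other 4 libraries.

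Against EV, VaWRKY12 callus had 43 risen and 31 fallen long genes, 10.3% of the 721 tested. Calls come from edgeR's quasi-likelihood F test at a Benjamini-Hochberg adjusted p under 0.05 over all genes. Over all 16317 tested genes 11.9% were called, 5.76% higher and 6.16% lower. The share of long genes called higher, 5.96%, was close to that background, and the share called lower was 4.30%. The median log2 fold change was 0.88 among the risen long genes and -0.80 among the fallen, against 0.99 and -0.87 among all risen and fallen genes. A change of at least 1 on the log2 scale was called for 18 higher and 11 lower long genes, where 2.82% and 2.57% of all tested genes were. DESeq2 called 52 higher and 45 lower (backgrounds 7.19% and 7.32%), and limma-voom 40 and 30 (backgrounds 5.27% and 6.09%). For 217 long genes (30.1%) the ranges of VaWRKY12 and EV in CPM did not overlap, against a background of 32.1% of all tested genes. Of the 43 risen long genes 42 were free of overlap in CPM, and of the 31 fallen all 31.

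At matched read level, fewer long genes than mid-length genes were called, and the gap lay in falls. Mid-length genes were weighted to the long genes over 10 classes of mean log2 CPM cut at the long genes' deciles. CPM is not divided by length, so at equal CPM a long gene has a lower RPKM than a mid-length gene. Matched level below means matched CPM. Of long genes 4.30% fell, against 8.58% of mid-length genes so matched, and 5.96% rose, against 6.49%. In all 10.3% of long genes were called, against 15.1% of mid-length genes, a difference of -4.81 points. With classes of mean log2 RPKM instead, the matched share of mid-length genes was 14.6%, a difference of -4.30 points, which was not split into rises and falls. This is a description of shares over genes, with no test of the difference. Without EV replicate 1 the shares were 5.25% of long genes and 8.07% of matched mid-length genes, a difference of -2.82 points. Over the 6 fits that each leave out a library it ran from -5.32 to -2.82 points. Mid-length genes were themselves called more often than all tested genes, at 14.8% before matching against 11.9%. Before matching, falls were 4.55% under 500 bases, 6.61% from 500, 7.71% from 1000, 5.29% from 2000 and 3.51% from 3000. They were 4.67% from 4000 and 6.96% at 5000 or more, against 6.16% of all tested genes. A low share of falls was thus neither particular to long genes nor seen in the longest.

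The gap was wider in the upper classes of CPM. In the 5 lower classes of level, 33 of 361 long genes rose (9.14%) and 16 fell (4.43%), against 7.72% and 6.79% of 3758 mid-length genes. In the 5 upper classes, 10 of 360 long genes rose (2.78%) and 15 fell (4.17%), against 5.48% and 10.2% of 1406 mid-length genes. The widest gap was in class 8, between 6.85 and 7.26 log2 CPM, where 1 of 72 long genes was called, against 18.8% of 260 mid-length genes. In classes 2 and 5 the order was the reverse, with 18.1% and 12.5% of long genes called, against 13.8% and 11.8% of mid-length genes. Long genes thus did not show the larger share of falls at high CPM that mid-length genes had.

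**Figure D3:**
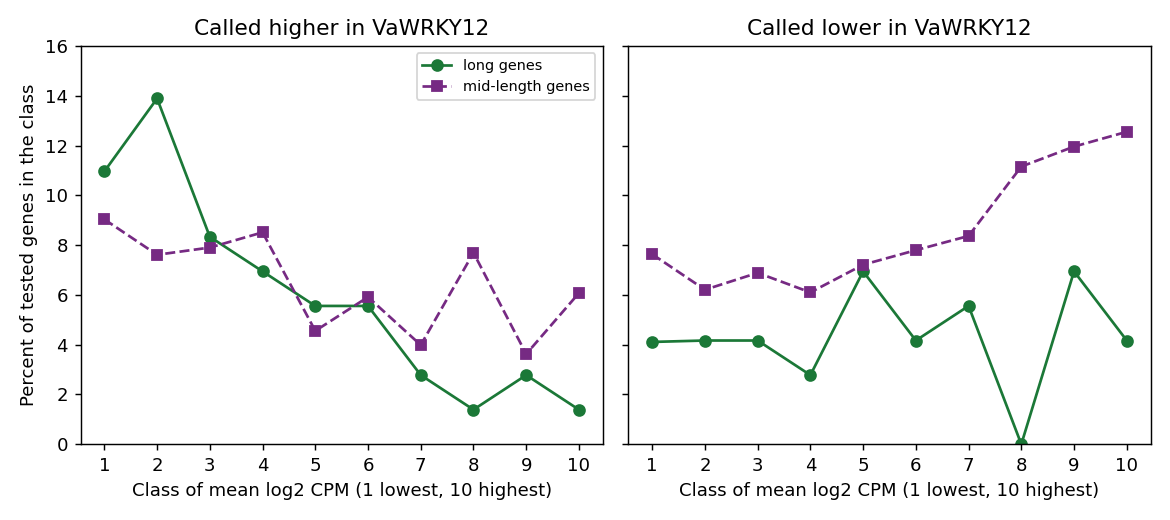
Percent of tested genes called higher (left) and lower (right) in VaWRKY12 by class of mean log2 CPM, for long genes (72 or 73 per class) and mid-length genes (247 to 886 per class). Mid-length falls reach 12.6% in class 10, where 3 of 72 long genes fell.

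The spread between replicates was set beside these counts, as it enters the test. The biological coefficient of variation, the relative spread between replicate libraries beyond counting error, had a median of 0.122 over all long genes. For matched mid-length genes the weighted mean of the class medians was 0.122. That is a different measure, so these values do not show equal spread. Class by class, the long genes' median was higher in 3 of the 5 lower and 4 of the 5 upper classes. In class 8 it was 0.108, against 0.0983 in mid-length genes. When each library's trend with length was removed by offsets, the coefficient was 0.108 in long genes, against 0.122 in mid-length genes, by these same differing measures. In that fit 47 long genes were higher (6.52%, background 5.79%) and 51 were lower (7.07%, background 7.15%), with a background of 12.9% in either direction. At matched level 13.6% of long genes were then called, against 15.8% of mid-length genes, a difference of -2.25 points, and 7.07% fell, against 9.60%. In this fit of all 6 libraries the gap to mid-length genes was narrower than without the offsets. The offsets also remove any part of the trend that differs between the genotypes.

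Without both VaWRKY12 replicate 3 and EV replicate 1, an alternative added after seeing the data, 35 long genes were higher and 34 lower (backgrounds 4.81% and 4.8%), and 9.50% were called, against 12.6% of mid-length genes at matched level. The background in either direction was 9.6%, and the matched difference was -3.11 points. With the length trends also removed from these 4 libraries, 32 were higher and 44 lower (backgrounds 4.65% and 5.83%, and 10.5% in either direction), with a matched difference of -3.40 points. In those libraries removal of the trends thus did not narrow the gap. Leaving out single libraries other than VaWRKY12 replicate 3 lowered the counts further, as it did over all genes.

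Leaving out VaWRKY12 replicate 1 left 23 higher and 21 lower long genes (backgrounds 4% and 4.04%), and leaving out VaWRKY12 replicate 2 left 22 and 19 (3.49% and 3.88%). Without VaWRKY12 replicate 3 there were 46 and 27 (5.88% and 6.06%). Without EV replicate 1 there were 18 and 20 (2.78% and 3.57%), without EV replicate 2 there were 16 and 14 (2.86% and 3.19%), and without EV replicate 3 there were 28 and 17 (3.32% and 4.18%). The library whose loss kept the most long genes called was thus VaWRKY12 replicate 3, the lowest for them. This was not particular to long genes. The same held for calls over all tested genes, where that library was the lowest for 26.5% of genes and the highest for 28.3%. A fit with the replicate number as a block called 48 and 43 (6.88% and 6.92%).

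The median log2 fold change was -0.05 over the 721 tested and 0.01 over all tested genes. For matched mid-length genes the weighted mean of the class medians was 0.01, a different measure from a median over all long genes. Matched values in the rest of this paragraph were formed in this way. Class by class, long genes were above mid-length genes in classes 1 to 3, at 0.06, 0.07 and 0.03 against 0.05, 0.02 and 0.01. They were below from class 4 up, for example at -0.12 against -0.01 in class 9. Of long genes 54.4% lay within 0.2 of 0, close to 51.3% of all tested genes, and 59.2% were below 0, against 48.2% of all tested genes. Per library, the median deviation of long genes minus that of matched mid-length genes was -0.03 ± 0.10 in VaWRKY12 and 0.02 ± 0.09 in EV (SD, n = 3 each), a difference of -0.05 that was smaller than the pooled SD of 0.10. Without VaWRKY12 replicate 3 the median log2 fold changes were 0.01 in long genes and 0.01 in matched mid-length genes. Without EV replicate 1 they were -0.10 and 0.00, and without both libraries -0.04 and 0.01.

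**Figure D4:**
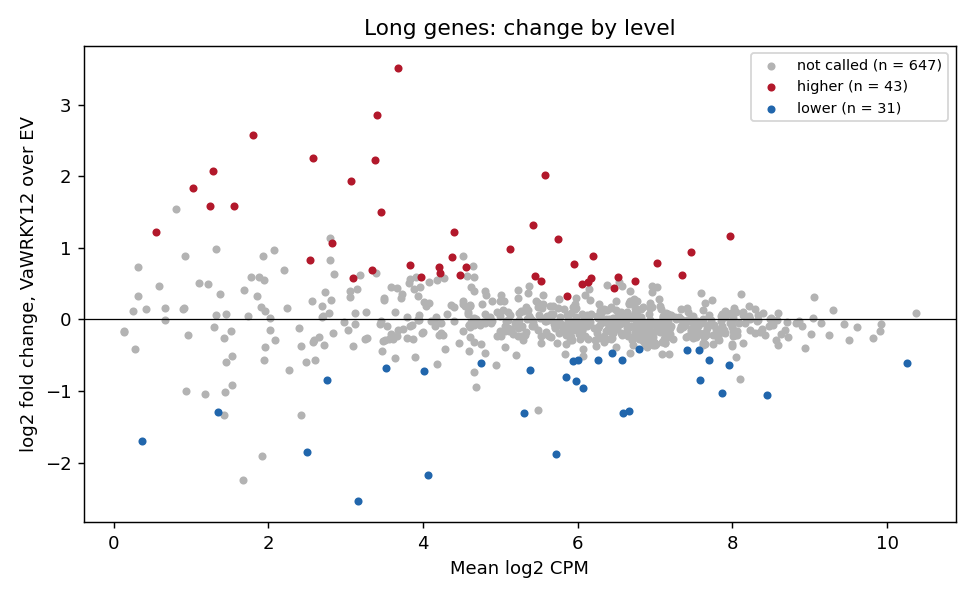
Each point is 1 of 721 tested long genes, with its mean log2 CPM and its log2 fold change of VaWRKY12 over EV. The 43 risen genes lie between 0.33 and 3.52 and the 31 fallen genes between -2.53 and -0.41, with 647 genes not called.

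Within the long genes, calls varied with exon number, counted with no test of the differences. Of 244 genes with more than 20 exons 17 rose and 19 fell (7.79%). Of 477 with 20 exons or fewer 26 rose and 12 fell (2.52%). Over all tested genes 5.76% rose and 6.16% fell, so falls above 20 exons were closer to background than those at 20 or fewer. The 59 genes of 2 to 5 exons had 2 risen and 1 fallen, and the lowest level of the exon classes, with a median of 5.44 RPKM, against 21.96 RPKM above 20 exons. Falls were also more frequent where counts held fractions of reads: 23 of 365 such long genes fell (6.30%), against 8 of 356 with whole reads in all libraries (2.25%). A fit to whole-read genes alone gave the same 22 and 8 long genes by count (backgrounds 6.41% and 6.02%). Among mid-length genes 8.35% with fractions and 7.31% with whole reads fell, and among all tested genes 6.67% and 5.82%. Long genes with fractions were thus near that background for falls, and those with whole reads lay below it. Rises did not divide in this way, with 21 and 22 long genes. Fractions and exon number went together, since 163 of the 244 genes with more than 20 exons had fractions. Among long genes with whole reads, 5 of 81 with more than 20 exons fell, and 3 of 275 with fewer.

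By coding length, 30 rose (6.58%) and 16 fell (3.51%) of 456 genes from 3000 to below 4000 bases. From 4000 to below 5000, 8 rose (5.33%) and 7 fell (4.67%) of 150. At 5000 or more, 5 rose (4.35%) and 8 fell (6.96%) of 115. The backgrounds over all tested genes were 5.76% and 6.16%, here and below. The median level was 18.8, 16.6 and 12.5 RPKM in these length classes. Genes with introns over less than 50% of their span, 138 in number, had 11 rises (7.97%) and 4 falls (2.90%). Those above 75%, 253 in number, had 15 (5.93%) and 14 (5.53%). On the plus strand 20 of 331 rose (6.04%) and 21 fell (6.34%), and on the minus strand 23 of 390 rose (5.90%) and 10 fell (2.56%).

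Long genes lay on each of the 19 chromosomes, from 23 on chromosome 15 to 59 on chromosome 14. On chromosome 4, 7 of 45 tested long genes fell and 0 rose, while of all 871 tested genes of that chromosome 54 fell and 50 rose. The 7 genes were spread from 2344376 to 23277500, with log2 fold changes of -1.88 to -0.42. On chromosome 17, 6 of 31 rose and 0 fell, while of all its 715 tested genes 38 rose and 39 fell. These 6 lay between 484106 and 8562707, with log2 fold changes of 0.33 to 2.26. The chromosomes were picked after their counts were seen and were not tested. Long genes were neighbours of each other in 59 pairs, 39 of them on the same strand. Both genes were called in 2 pairs, 1 of them in the same direction.

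The largest rises and falls below come from called long genes whose groups did not overlap and whose higher group averaged 50 reads or more, limits met by 37 risen and 29 fallen long genes. Positions are as the deposited table has them, on a build that it does not name. GSVIVT01010326001, on chromosome 1 (plus strand, 19526696 to 19532161), with 12 exons and 4092 coding bases, had the largest rise. It had 15.9, 16.5 and 22.02 CPM in VaWRKY12 replicates 1, 2 and 3, against 2.17, 1.79 and 3.66 CPM in EV. It averaged 18.1 ± 3.38 CPM in VaWRKY12 and 2.54 ± 0.987 CPM in EV (SD, n = 3 each), a log2 fold change of 2.85 with an SE of 0.27 (adjusted p = 0.0018 by edgeR). Each VaWRKY12 library was above each EV library.

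GSVIVT01031419001, on chromosome 6 (minus strand, 18800016 to 18808055), with 12 exons and 3081 coding bases, had the next largest rise. It had 6.02, 5.41 and 5.03 CPM in VaWRKY12 and 0.790, 1.13 and 0.800 CPM in EV, where it had 7 to 12 reads per library. The log2 fold change was 2.58 with an SE of 0.27 (adjusted p = 0.0022 by edgeR), with no overlap between groups. Both risen genes had whole reads in all libraries, and both passed the threshold in each alternative that tested them.

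GSVIVT01003710001, on chromosome 7 (plus strand, 15143050 to 15149312), with 3 exons, had the largest fitted fall. Its 6069 coding bases lie almost wholly in 1 exon of 5825 bases. It had 0.906, 6.47 and 0.782 CPM in VaWRKY12 replicates 1, 2 and 3, against 19.5, 14.3 and 11.1 CPM in EV, a log2 fold change of -2.53 with an SE of 0.66 (adjusted p = 0.0431 by edgeR). VaWRKY12 replicate 2 stood above the other 2 libraries of its group but below each EV library. The call was not stable: the adjusted p ran from 0.00386 without VaWRKY12 replicate 2 to 0.132 without EV replicate 1 and missed the threshold in 8 of 15 fits. Without VaWRKY12 replicate 2 the log2 fold change was -4.11.

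GSVIVT01031378001, on chromosome 6 (minus strand, 19347375 to 19360240), with 21 exons and 4383 coding bases, had 4.14, 6.68 and 7.71 CPM in VaWRKY12, against 22.5, 23.2 and 36.2 CPM in EV. It averaged 6.18 ± 1.84 CPM in VaWRKY12 and 27.3 ± 7.74 CPM in EV (SD, n = 3 each), a log2 fold change of -2.17 with an SE of 0.28 (adjusted p = 0.00346 by edgeR). The groups did not overlap, and the call held in each alternative that tested the gene. The counts of both fallen genes included fractions, and may be shared in part with other models.

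**Figure D5:**
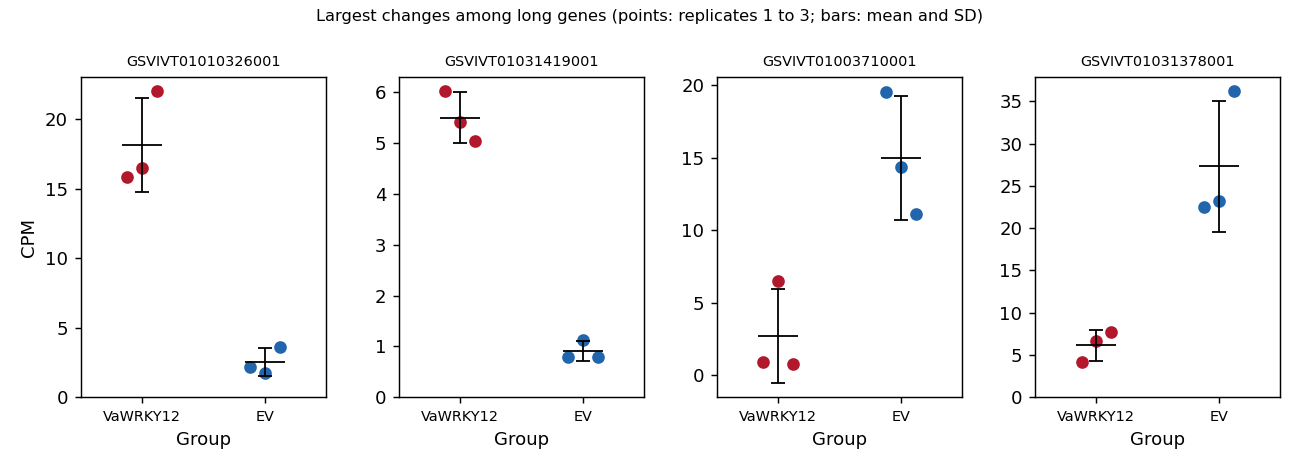
CPM in each library (points, replicates 1 to 3 from left to right) with the mean and SD of each group, for the long genes with the largest rises (left pair) and falls (right pair). VaWRKY12 replicate 2 of GSVIVT01003710001, at 6.47 CPM, stands apart from the other VaWRKY12 libraries.

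A gene of 18 exons on chromosome 5 from 1845533 to 1854311, singled out after its values were seen, had the largest fitted rise of all but did not meet these limits. It had 33.9, 31.2 and 2.24 CPM in VaWRKY12 replicates 1, 2 and 3, against 1.18, 2.26 and 2.51 CPM in EV. VaWRKY12 replicate 3 thus lay within the EV range. Its log2 fold change was 3.52 (adjusted p = 0.0352 by edgeR), and 4.04 without that library (adjusted p = 0.0006, edgeR). By edgeR the adjusted p was 0.0844 without VaWRKY12 replicate 1 and 0.0850 without VaWRKY12 replicate 2, and 0.0967 to 0.124 without single EV libraries. With all libraries kept, it was 0.0070 by DESeq2 and 0.271 by limma-voom, which thus did not call the gene.

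The most abundant called long genes were also picked after their values were seen. The most abundant riser, of 21 exons on chromosome 15 from 9661911 to 9669697, had 99.8, 108 and 106 RPKM in VaWRKY12 and 38.8, 45.0 and 53.9 RPKM in EV. Its log2 fold change was 1.17 with an SE of 0.13 (adjusted p = 0.00232 by edgeR). The most abundant faller, of 35 exons on chromosome 18 from 4098351 to 4112734, had 166, 157 and 128 RPKM in VaWRKY12 and 204, 217 and 252 RPKM in EV. Its log2 fold change was -0.60 with an SE of 0.13 (adjusted p = 0.0198 by edgeR), and its adjusted p was 0.0637 without VaWRKY12 replicate 2, 0.0586 without EV replicate 2 and 0.0782 without EV replicate 3. Its groups did not overlap, with VaWRKY12 replicate 3 the lowest. Risen long genes had a median level of 6.91 RPKM and a median of 16 exons, and fallen ones 17.5 RPKM and 23 exons.

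The longest models had very large single exons, of 29890 and 23595 bases in the pair that follows. The model of 31131 bases, on chromosome 16 from 9126428 to 9159944, had 0.380, 0.438 and 0.369 RPKM in VaWRKY12 and 0.243, 0.211 and 0.267 RPKM in EV. It was called higher, with a log2 fold change of 0.70 with an SE of 0.16 (adjusted p = 0.0285 by edgeR). Its adjusted p was 0.0551 to 0.102 without single libraries, except 0.0384 without VaWRKY12 replicate 3. The longest model that was not called, GSVIVT01008382001, has 25251 coding bases in 20 exons on chromosome 17 from 2618187 to 2673179. It had 13.8, 14.7 and 14.5 RPKM in VaWRKY12 and 13.6, 14.1 and 14.7 RPKM in EV, with overlapping groups and a log2 fold change of -0.0014 with an SE of 0.08 (adjusted p = 0.994 by edgeR).

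GSVIVT01016794001, with 103 exons on chromosome 9 from 1403954 to 1462243, had the most exons. It had 8.35, 8.51 and 7.18 RPKM in VaWRKY12 and 8.38, 10.2 and 10.1 RPKM in EV. Its log2 fold change of -0.28 with an SE of 0.10 (adjusted p = 0.123 by edgeR) did not pass the threshold. EV replicate 1 was the lowest of its group, and the groups overlapped in RPKM but not in CPM. GSVIVT01028256001, of 17 exons on chromosome 7 from 4974456 to 4980353, had the highest mean level, at 251, 255 and 217 RPKM in VaWRKY12 and 268, 289 and 293 RPKM in EV. Its log2 fold change of -0.26 with an SE of 0.10 (adjusted p = 0.136 by edgeR) did not pass either, though its groups did not overlap. In both genes VaWRKY12 replicate 3 was the lowest library. GSVIVT01008382001 did not follow that order, with EV replicate 1 lowest in RPKM and VaWRKY12 replicate 3 between the others of its group. In CPM its lowest library was VaWRKY12 replicate 1, at 338, and its highest VaWRKY12 replicate 3, at 374.

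Genes on either side of the limits had levels in the same range. The nearest inside the length limit, of 3000 and 3003 bases, averaged 51.8 ± 2.45 and 21.99 ± 3.26 RPKM in VaWRKY12, and 50.7 ± 9.91 and 28.0 ± 2.52 RPKM in EV. Of the genes outside it the nearest 2 both have 2997 bases, and averaged 35.8 ± 7.30 and 31.8 ± 3.72 RPKM in VaWRKY12, and 50.8 ± 7.13 and 38.3 ± 0.936 RPKM in EV. Just inside the gap limit, genes with gaps of 9961 and 9955 bases averaged 2.12 ± 0.210 and 16.02 ± 0.948 RPKM in VaWRKY12, and 3.36 ± 0.263 and 17.3 ± 0.978 RPKM in EV. Just outside it, at 10006 and 10132 bases, the means were 4.72 ± 0.452 and 23.7 ± 3.64 RPKM in VaWRKY12, and 4.66 ± 0.793 and 23.6 ± 2.16 RPKM in EV (SD, n = 3 each).

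The authors' deposited table called 41 long genes higher and 29 lower (false discovery rate limit 0.05), beside 5.67% and 5.89% of all its genes. Here 69 of them had a call of the same sign, 1 was called only in the authors' deposited table and 5 only here.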

How the data were processed

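RNA was sequenced from 3 VaWRKY12 and 3 EV libraries. The submitters' processing notes list Trimmomatic, HISAT2 2.0.5 and edgeR and give them no roles. The read counter, genome build and gene models were not given in the sources used here. As for units, per the file headers, the deposited table holds reads, taken as estimated counts since some are not whole (tolerance 1e-06), RPKM, and the authors' log2 fold change, mean log2 CPM, F score, p-value and false discovery rate. The deposited RPKM values were recomputed from reads, coding length and column totals (largest difference 4.7e-06). Lengths equal the sum of exons. Whether counting used strand is unstated, so antisense genes that overlap cannot be separated.

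Reads were rounded and tested over the whole table with edgeR 4.0.16 in R 4.3.3 (filterByExpr at a minimum count of 10, TMM, two-sided quasi-likelihood F test, Benjamini-Hochberg adjusted p under 0.05). Of the 731 long genes, 721 were tested. CPM used TMM factors, with a prior of 2 counts on the log2 scale. The SE was derived from F. Total reads of 8795632 to 14966502 set the precision, with 3 reads standing for 0.2 to 0.341 CPM. The test and the matched shares were tested on simulated data. The long genes, classes and naming rule were chosen with earlier results of these data known. Named were the 2 largest rises and 2 falls under the limits given in the text, and the uncalled genes with greatest length, exon number and RPKM. Alternatives were DESeq2 1.42.0, limma-voom (limma 3.58.1), other scalings and filters, whole-read genes, removal of length trends (loess span 0.5), other limits and matching, a replicate block, and leaving out libraries. Replicate numbers were not taken to pair libraries. No gene names, sequences or gene lists by function were used.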

Additional observations from a re-analysis of the deposited data

How the results depend on the processing

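Higher and lower long genes numbered 16 to 46 and 14 to 27 when single libraries were left out, against 43 and 31. Requiring a log2 change of 1 gave 18 and 11 by construction, with a matched difference of -1.12 points. Whole-read genes gave 22 and 8, over 356 long genes. Lengths from 2500 gave 85 and 54, and from 4000 gave 13 and 15, over 1291 and 265 tested genes. Removing length trends gave 51 lower and a matched difference of -2.25 points. Without EV replicate 1 and VaWRKY12 replicate 3, chosen after seeing the data, 35 and 34 were called, with a matched difference of -3.11 points, and of -3.40 points with length trends also removed. With whole-read genes the matched difference was -6.89 points, and under the other scalings, count filters, tools, matching, gap and length limits it lay between -5.87 and -4.30 points. With a replicate block 48 were higher and 43 lower, with a matched difference of -4.43 points. The deviations of same-numbered libraries correlated at -0.063, 0.325 and 0.175, against -0.349 to 0.211 for libraries of different number. Deviations from a group's own mean depend on each other, so these values cannot decide if replicate numbers pair libraries. The median log2 fold change of long genes, minus the weighted mean of mid-length class medians, was refitted with single libraries left out. It lay between -0.107 and -0.0007. The difference in read share, VaWRKY12 minus EV, lay between -0.623 and 0.0891 points and that in median RPKM between -1.54 and 0.315. The log2 difference of medians lay between -0.15 and -0.04, and the slope on length between -0.0203 and 0.0243. With whole-read genes the median RPKM of long genes was 12.7 in VaWRKY12 and 12.3 in EV, a difference of 0.353. At this depth 3 reads stand for up to 0.341 CPM.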
